A study of Mus musculus with 12 samples.

Results

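The 8 libraries described here came from mouse embryonic stem cell (ESC) cultures that had differentiated for 3 days and were then parted by fluorescence-activated cell sorting (FACS) into cells with (Eo+) and without (Eo−) the signal of an Eomes reporter. They were taken by their labels, 4 Eo+ and 4 Eo− libraries of the 12 in the series, and the other 4, from undifferentiated ESCs, were not compared. Every library was made from the same EomesEGFP reporter line of C57BL/6 background, in which EGFP was placed where transcription of the Eomes gene begins, grown on fibroblast feeder cells before differentiation as hanging-drop embryoid bodies. No treatment was given, and both fractions share line, allele, day and culture. Cultures carry the numbers 1, 2, 5 and 6, and each gave 1 Eo+ and 1 Eo− library, so that the fractions could be compared within a culture. All results come from 1 reporter line. A p-value for the fractions rests on how much the Eo+ to Eo− difference varied over these 4 cultures, with a variance moderated across loci. Differences in level between cultures are taken out by the pairing.

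Eomes is a T-box transcription factor that comes on in the posterior epiblast as gastrulation starts. Cells that switch it on leave the epithelial epiblast through the primitive streak and give rise to definitive endoderm and to the anterior mesoderm, heart precursors among them. Nodal, Wnt, BMP and FGF signals drive this step, which goes with the loss of the pluripotency network and with the passage from an epithelial to a mesenchymal cell.

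Poly(A) RNA was read very deeply: 648413022 to 797536501 reads were counted in loci per sorted library, so that 3 reads correspond to 0.00376 to 0.00463 CPM, the usual measure of reads in a locus relative to all counted in its library. Reads that mapped to several places made up 22.4% to 26.2% of a library and were not counted in loci. Spearman correlations over loci lay between 0.9902 and 0.998 within a fraction and between 0.9578 and 0.9796 across fractions. The first principal component, with 86.4% of the variance of the 500 most variable loci, set the fractions apart, and the second, with 8.1%, set culture 1 apart in both. Levels below are CPM, given for cultures 1, 2, 5 and 6 in that order, and differences are log2(Eo+/Eo−) ± SE from a fit in which each culture is its own control. The RNA is from bulk cells, so fewer cells of a type and less RNA per cell cannot be told apart.

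Of 16563 loci tested, 8381 (50.6%) differed between the fractions at an adjusted p of at most 0.05, 4385 (26.5%) higher in Eo+ and 3996 (24.1%) lower. At 2-fold or more the counts were 1009 (6.09%) higher and 1482 (8.95%) lower. With so many calls, the direction and size of a difference say more than the call itself, and any group of genes is to be read against these shares and against a median difference of -0.005 over all loci tested. The libraries of the fractions did not overlap for 6794 loci (41.0%), with all of Eo+ above Eo− for 3517 (21.2%) and below for 3277 (19.8%). Groups of genes were lists drawn up for lineages, pathways and metabolism, and Eomes, the sorted gene, is left out of their counts. Some genes, such as Gata6, Nodal and Tdgf1, stand on several lists, so the lists are not independent of each other.

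**Figure D1:**
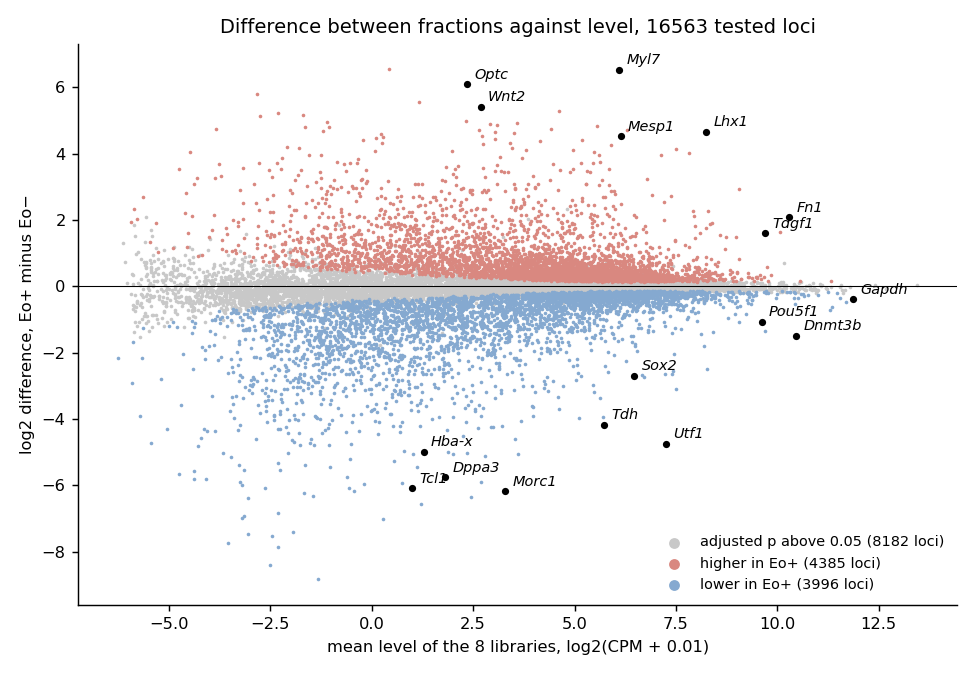
Log2 difference between Eo+ and Eo− cells (y axis) against mean level on the log2(CPM + 0.01) scale (x axis) for 16563 loci, one point each. Red marks 4385 loci higher in Eo+, blue 3996 lower, grey those not called. Myl7 is the highest of the labelled genes at 6.53. Of the abundant ones, Gapdh lies at -0.39, Fn1 at 2.09 and Dnmt3b at -1.49.

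Eomes itself (chr9:118477475-118488290, plus strand, mm10) stood at 446, 645, 449.7 and 579.7 CPM in Eo+ and at 138, 169.7, 119 and 131 CPM in Eo−. The sort therefore left an Eomes level in Eo− that was 22.5% to 31.0% of that in the Eo+ cells of the same culture. As the gene that defines the gate, Eomes was not tested.

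The primitive streak programme parted the fractions. Of 19 tested streak and mesendoderm factors other than Eomes, 14 were higher in Eo+, 2 were lower and 3 were not called, with a median difference of 1.82. Mixl1, a homeobox factor of the streak, was present at 264, 473, 215 and 420.4 CPM in Eo+ and at 26.8, 24.1, 6.86 and 21.4 CPM in Eo−. Its fractions lay far apart in every culture, by 4.15 ± 0.21 (adjusted p = 1.21e-05). Lhx1, a LIM homeobox factor of anterior streak and head mesendoderm, reached 434, 804, 448 and 648 CPM in Eo+ against 30.2, 24.7, 13.5 and 23.6 CPM, a difference of 4.66 ± 0.19 (adjusted p = 6.26e-06). Goosecoid (Gsc), a factor of the anterior streak and organizer, differed by 4.11 ± 0.15 (adjusted p = 5.94e-06), and Evx1, a posterior streak factor, by 2.47 ± 0.23 (adjusted p = 0.00011). Mesp1 (chr7:79792234-79811286, minus strand), the earliest marker of cardiovascular mesoderm, was at 89.2, 214, 49.1 and 188 CPM in Eo+ and 7.04, 9.09, 1.42 and 6.15 CPM in Eo−. All 4 Eo+ libraries were above all 4 Eo− libraries for Mesp1 (4.52 ± 0.21, adjusted p = 8.35e-06), yet within either fraction culture 5 was the lowest and culture 2 the highest. Its neighbour Mesp2 followed with 3.87 ± 0.20 (adjusted p = 1.26e-05).

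Some streak genes were abundant in Eo− as well. Brachyury (T), the T-box factor of the whole streak, was at 440.2, 778, 593 and 683 CPM in Eo+ and still at 321, 231, 112 and 276 CPM in Eo−. The difference for T, 1.48 ± 0.26 (adjusted p = 0.00251), was smaller than for Mixl1 or Mesp1, and the ratio within a culture ran from 0.45 in culture 1 to 2.399 in culture 5 on the log2 scale. Cdx2, a caudal homeobox factor, was lower in Eo+ (-1.27 ± 0.20, adjusted p = 0.00136, and 0.151 without the pairing of cultures), with 11.03, 3.80, 4.21 and 8.58 CPM against 34.8, 11.3, 4.91 and 18.2 CPM, so that the fractions overlapped while each Eo+ library stood below its partner. Nodal, the streak-inducing ligand, was the other member that was lower.

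**Figure D2:**
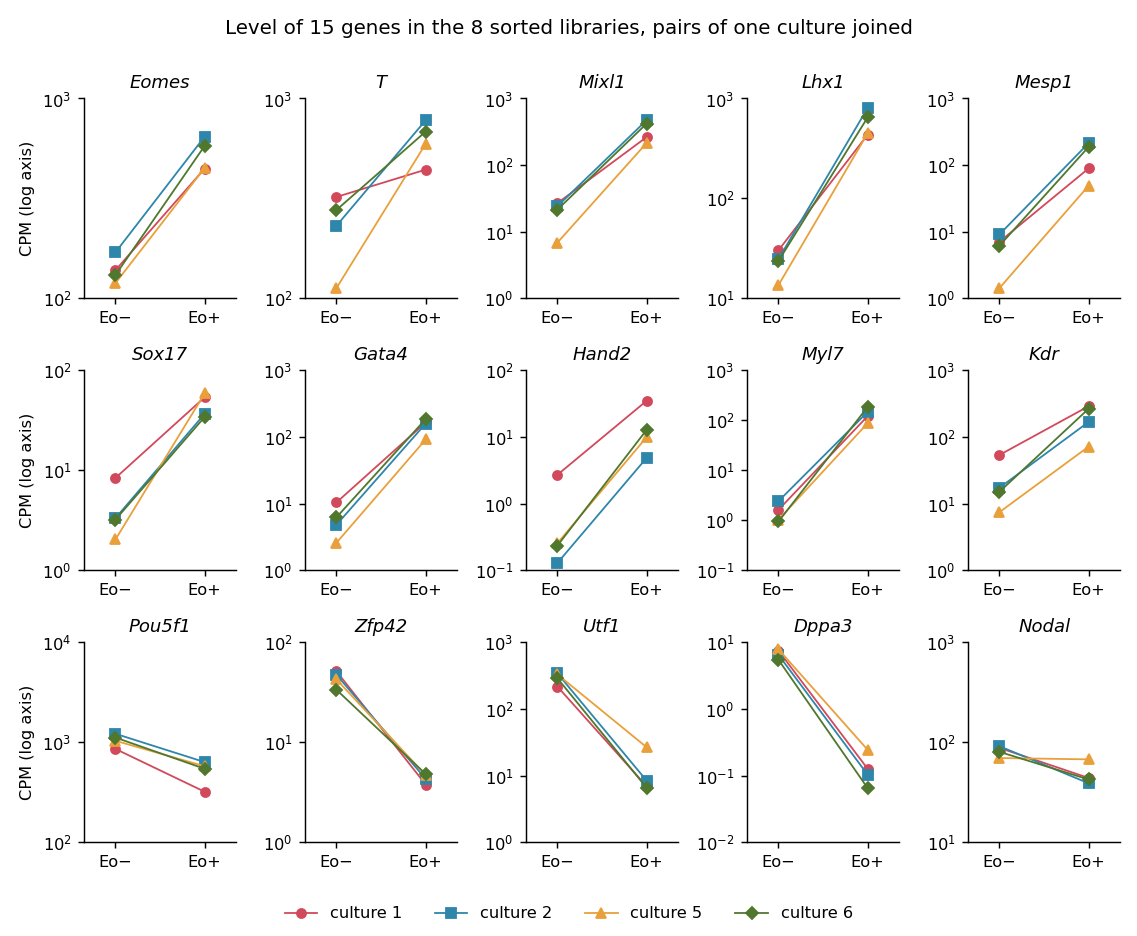
CPM (y axis, log scale) of 15 genes in Eo− and Eo+ cells (x axis), 1 point per library, with lines that join the fractions of a culture; colours and symbols mark cultures 1, 2, 5 and 6. Mixl1, Lhx1, Mesp1, Gata4 and Myl7 climb in every culture, T climbs least in culture 1, and Zfp42, Utf1 and Dppa3 drop in every culture.

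Endoderm regulators showed the largest median difference of any list, 2.84, and 14 of 15 tested members were higher in Eo+ with none lower. Visceral endoderm genes were higher too, 14 of 22 with 2 lower (median 1.38), and which kind of endoderm was present was not tested. Sox17, an HMG-box factor needed for definitive endoderm, was at 53.9, 36.8, 58.9 and 34.2 CPM in Eo+ and 8.38, 3.32, 2.03 and 3.21 CPM in Eo− (3.51 ± 0.30, adjusted p = 7.88e-05). Foxa2, a forkhead factor of endoderm and axial mesoderm, was at 90.2, 102, 165 and 91.8 CPM against 16.6, 19.0, 12.9 and 16.0 CPM (2.77 ± 0.20, adjusted p = 4.13e-05). In both genes culture 5 gave the highest Eo+ and the lowest Eo− library. Cerberus (Cer1), a secreted antagonist of Nodal, BMP and Wnt made by anterior endoderm, was at 184, 249.7, 396 and 223 CPM against 15.9, 17.6, 13.3 and 18.9 CPM (3.96 ± 0.21, adjusted p = 1.26e-05). Cxcr4, a chemokine receptor used to mark definitive endoderm and also present on mesoderm, differed by 4.06 ± 0.20 (adjusted p = 1.07e-05). Hhex and Foxa1, factors of anterior and gut endoderm, were higher by 2.42 ± 0.18 and 2.83 ± 0.16. Trh, the member not called, encodes the precursor of thyrotropin-releasing hormone and stood at 773, 460.4, 1815 and 676 CPM in Eo+ and 1056, 1535, 1462 and 1397 CPM in Eo−, higher in Eo+ in culture 5 alone (-0.73 ± 0.28, adjusted p = 0.062); without culture 5 it was lower in Eo+ (-1.08, adjusted p = 0.00532).

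Heart regulators rose alongside: 15 of 16 tested were higher in Eo+ and none was lower, with a median of 2.35. Gata4, a zinc finger factor shared by cardiac mesoderm and endoderm, stood at 166, 159, 92.0 and 186 CPM in Eo+ and 10.4, 4.81, 2.58 and 6.22 CPM in Eo− (4.71 ± 0.19, adjusted p = 6.26e-06), and Gata6 differed by 4.83 ± 0.25 (adjusted p = 1.21e-05). Hand2, a bHLH factor of heart and limb mesoderm, was at 35.0, 4.88, 9.98 and 12.8 CPM against 2.71, 0.129, 0.255 and 0.234 CPM (4.66 ± 0.35, adjusted p = 4.59e-05), with culture 1 highest in both fractions. Tbx20, a T-box factor of the early heart, differed by 3.45 ± 0.12 (adjusted p = 5.05e-06). Hand1, a factor of lateral and extraembryonic mesoderm, was at 120.3, 35.0, 18.2 and 75.3 CPM against 23.5, 4.30, 2.59 and 10.7 CPM: the fractions overlapped, since culture 1 Eo− was above culture 5 Eo+, but within a culture Eo+ exceeded Eo− by 2.36 to 3.02 on the log2 scale (2.67 ± 0.12, adjusted p = 8.16e-06). Nkx2-5, the homeobox factor of committed heart cells, was low in both fractions, 1.34 ± 0.701 CPM (SD, n = 4) in Eo+ and 0.161 ± 0.0346 CPM in Eo−, and Gata5 and Tbx5 did not pass the filter on low values.

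The contractile genes did not move as a group. Of 18 tested sarcomere and smooth muscle loci, 7 were higher, 3 lower and 8 not called, with a median of 0.24, and 4 were higher in the fit of all 12 libraries without the pairing. Myl7 (chr11:5895449-5899539, minus strand), the atrial myosin light chain, had the largest rise among loci with 1 name, 5 CPM or more in the higher fraction and no overlap. It was at 122, 148, 88.0 and 186 CPM in Eo+ and 1.62, 2.41, 1.02 and 0.943 CPM in Eo− (6.53 ± 0.25, 92.6-fold, adjusted p = 6.14e-06). Myl4, a second atrial light chain, differed by 2.103 ± 0.20 (adjusted p = 0.000136). The ventricular light chain Myl2 was lower in Eo+ (-1.96 ± 0.21, adjusted p = 0.000224), as were Actn2, which crosslinks sarcomeric actin (-1.003 ± 0.10), and the locus that joins Myh6 and Myh7 (-1.09 ± 0.17), in which the 2 heavy chain genes cannot be told apart. Tnnt2 and Ttn did not pass the filter.

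Among 18 genes of paraxial, lateral and general mesoderm, 14 were higher in Eo+, 2 lower and 2 not called, with a median of 1.60. The locus of Pdgfra, a receptor of migrating mesoderm that shares its locus with a microRNA, was at 91.6, 121, 44.3 and 110.3 CPM in Eo+ against 8.74, 5.46, 3.38 and 5.82 CPM (3.96 ± 0.18, adjusted p = 8.16e-06). Kdr, the VEGF receptor that marks mesoderm with vascular and cardiac potential, was at 290.5, 169, 71.9 and 267 CPM against 53.7, 17.3, 7.43 and 15.1 CPM (3.24 ± 0.24, adjusted p = 4.81e-05). Both genes were lowest in culture 5 in either fraction. The presomitic factor Tbx6 and the Notch ligand Dll1 were higher by 1.82 ± 0.17 and 2.38 ± 0.24. Tcf15 and Hes7, factors of somite formation, were lower, with differences of -1.86 ± 0.13 and -1.07 ± 0.15 (adjusted p = 3.32e-05 and 0.000741).

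Blood and endothelial genes went both ways. Of 25 tested, 9 were higher and 9 lower in Eo+, and the median was -0.34. The count of lower genes was 3 without the pairing and 5 where loci under 1 CPM are left out, and the median was 0.06 under that filter, -0.01 without culture 2 and -0.62 without culture 1. The higher ones included factors of the common precursor: Etv2, an ETS factor that starts the haemato-endothelial programme, at 44.4, 81.8, 22.1 and 105 CPM in Eo+ against 8.48, 13.4, 7.00 and 11.2 CPM (2.58 ± 0.20, adjusted p = 5.51e-05), with Tal1 (1.97 ± 0.15), Lmo2 (1.90 ± 0.18) and Gata2 (1.98 ± 0.24), which act in 1 complex in blood precursors. Flt1, a second VEGF receptor, was higher by 2.42 ± 0.21 (adjusted p = 9.15e-05). On the lower side were globins, the erythroid factors Klf1 and Nfe2, and surface proteins of endothelium. Pecam1, an adhesion molecule of endothelium that pluripotent cells also carry, was at 8.77, 0.869, 1.97 and 1.20 CPM in Eo+ and 32.2, 14.7, 9.43 and 11.4 CPM in Eo− (-2.63 ± 0.33, adjusted p = 0.000442). The endothelial receptor Tie1 and the endothelial cadherin Cdh5 were lower too (-2.46 ± 0.36 and -1.18 ± 0.24, adjusted p = 0.00102 and 0.00509, and 0.0574 and 0.339 without the pairing). Without culture 1, which had the highest level of Cdh5 in both fractions, the difference was -1.10 with an adjusted p of 0.0577. Embryonic globin Hbb-bh1 was at 7.39, 0.0520, 1.04 and 0.206 CPM in Eo+ and 75.7, 1.52, 1.91 and 2.68 CPM in Eo−, so that 1 library, culture 1 Eo−, held most of the counts. Its difference was -3.12 ± 0.40 (adjusted p = 0.000533, and 0.154 without the pairing), and that of the embryonic globin Hba-x was -4.98 ± 0.50 (adjusted p = 0.000161). Globin reads can be shared among near-identical copies, and such reads were not counted, which makes the single-gene values uncertain.

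Genes of visceral endoderm transport and secretion were higher in 14 of 22 tested and lower in 2 (9 and 1 where loci under 1 CPM are left out), with a median of 1.38, at levels that hung on the culture. Apob, the main protein of secreted lipoproteins, was at 38.4, 2.35, 18.6 and 8.07 CPM in Eo+ and 2.62, 0.401, 0.584 and 0.664 CPM in Eo− (3.90 ± 0.29, adjusted p = 4.66e-05). Transthyretin (Ttr) was at 22.9, 0.659, 11.8 and 3.56 CPM against 3.96, 0.186, 0.643 and 0.553 CPM (2.90 ± 0.30, adjusted p = 0.000199, and 0.0988 without the pairing). For both, culture 1 was highest and culture 2 lowest in either fraction, and the range over the Eo+ cultures was wider than the difference between fractions. Lrp2 (megalin), an endocytic receptor that the early epiblast and neural plate also carry, was lower in Eo+ (-2.99 ± 0.22, adjusted p = 4.13e-05). The secreted plasma proteins of this list are shared between visceral and later definitive endoderm, and the list does not tell these apart.

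Pluripotency genes formed the opposite pole. Of 16 naive factors, 11 were lower in Eo+, 1 was higher and 4 were not called, with a median of -2.47. Zfp42 (Rex1), a zinc finger protein of naive ESCs, was at 3.77, 4.30, 4.68 and 4.80 CPM in Eo+ and 51.3, 47.4, 42.6 and 33.5 CPM in Eo− (-3.32 ± 0.15, adjusted p = 8.16e-06). Esrrb, an orphan nuclear receptor of the naive network, differed by -3.71 ± 0.24 (adjusted p = 2.38e-05), and Klf2, a zinc finger factor of the same network, by -2.60 ± 0.20 (adjusted p = 5.59e-05). Dppa3 (Stella), a maternal and germ cell factor, was at 0.126, 0.103, 0.242 and 0.0645 CPM against 7.49, 6.48, 7.86 and 5.47 CPM (-5.75 ± 0.24, adjusted p = 7.81e-06), and Tcl1, an Akt cofactor, differed by -6.08 ± 0.34 (adjusted p = 1.45e-05). The nuclear receptors Nr0b1 and Nr5a2 differed by -5.06 ± 0.23 and -5.01 ± 0.17, both lower in Eo+. Tbx3, the member that went the other way, is a T-box factor of naive cells that mesoderm and endoderm use too, and it stood at 82.0, 45.6, 21.3 and 70.1 CPM in Eo+ against 9.32, 4.16, 3.04 and 3.43 CPM (3.45 ± 0.22, adjusted p = 2.25e-05).

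Core factors were lower with a smaller range: 13 of 15 were lower and 2 higher, with a median of -1.06. Pou5f1 (Oct4) was at 319, 632, 575 and 542 CPM in Eo+ and 857, 1215, 1034 and 1114 CPM in Eo− (-1.06 ± 0.09, adjusted p = 8.01e-05), about 2.09-fold. Nanog, its homeobox partner, was at 90.2, 117, 176 and 96.1 CPM against 184, 177, 177 and 159 CPM, a difference of -0.59 ± 0.14 (adjusted p = 0.0108) in which culture 5 had no part, with 176 CPM in Eo+ and 177 CPM in Eo−. The locus of Sox2, which the assembly joins with the noncoding Sox2ot, was lower (-2.69 ± 0.16, adjusted p = 1.75e-05). Utf1, a chromatin protein of ESCs and epiblast, was at 6.88, 8.34, 26.5 and 6.52 CPM against 216, 341, 329.5 and 288 CPM (-4.75 ± 0.29, adjusted p = 2.1e-05). Dppa4 and Dppa2, DNA-binding partners in ESCs, were lower, with differences of -3.96 ± 0.12 and -3.61 ± 0.10. Tdgf1 (Cripto), the Nodal coreceptor, and Sall4 were the members higher in Eo+, by 1.60 ± 0.13 and 0.38 ± 0.08.

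Formative and primed epiblast genes went both ways, 6 higher (3 without the pairing) and 10 lower of 20, with a median of -0.22 (-0.43 without culture 5). Pou3f1 (Oct6), a POU factor of epiblast and neural plate, was at 4.96, 8.24, 16.7 and 6.74 CPM in Eo+ and 71.7, 86.2, 113 and 89.7 CPM in Eo− (-3.37 ± 0.17, adjusted p = 1.21e-05), and Sox3 differed by -2.86 ± 0.24 (adjusted p = 6.77e-05). Fgf5, the epiblast ligand, was higher in Eo+ by 0.64 ± 0.09 (adjusted p = 0.000825), and Otx2, an anterior epiblast factor, was slightly lower (-0.24 ± 0.07, adjusted p = 0.0234). The call for Otx2 was lost without culture 1 (-0.17, adjusted p = 0.0902) or culture 6 (-0.21, adjusted p = 0.111). It was also lost without the pairing (adjusted p = 0.268) and with all assembled loci in the fit (-0.16, adjusted p = 0.0865). Of 26 neuroectoderm genes, 13 did not pass the filter on low values, among them Sox1 and Pax6, and of the 12 tested 3 were higher and 6 lower (1 and 3 where loci under 1 CPM are left out), with a median of -0.51 (-0.78 without culture 5). The 3 higher members were all at least 2-fold higher, up to a difference of 3.25, and 4 of the lower ones at least 2-fold lower. The largest fall was in Neurog3, a bHLH factor under 1 CPM in every library. It was at 0.0102, 0.0195, 0.00709 and 0 CPM in Eo+ and 0.508, 0.483, 0.723 and 0.697 CPM in Eo− (-6.23 ± 0.70, adjusted p = 0.000278). Its level in Eo+ was close to that of the 3-read floor.

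Germline genes were lower in 15 of 20 and higher in 3, with the lowest median of all lists, -2.63. Morc1, a chromatin ATPase that silences transposons in germ cells, was not on the list but among the largest falls, with 0.176, 0.252, 0.471 and 0.212 CPM in Eo+ and 20.5, 20.2, 18.4 and 17.6 CPM in Eo− (-6.17 ± 0.25, adjusted p = 6.95e-06). Mael and Tdrd12, parts of the piRNA machinery, were lower, by log2 differences of -4.09 ± 0.17 and -3.01 ± 0.13 (adjusted p = 7.81e-06 and 8.16e-06). Dazl, an RNA-binding protein of germ cells, showed -3.84 ± 0.17 (adjusted p = 8.16e-06). Kit, Prdm1 and Ifitm1, the 3 higher members, are also used in blood, endoderm and mesoderm, and Prdm1 was not called without culture 2 (0.99, adjusted p = 0.0552). Trophoblast genes were split, 8 higher and 6 lower of 15 (median 1.09, and 0.47 over loci with 1 name), with 3 lower where loci under 1 CPM are left out, and surface ectoderm genes likewise, 4 higher and 4 lower of 8 (median -0.07), with 2 higher and a median of -0.64 over loci with 1 name and 2 lower in the fit of all 12 libraries.

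The sequences below show where in their promoters a factor of each pole, Mesp1 and Zfp42, holds a textbook motif, in capitals: the T-box site TCACACCT (AGGTGTGA on the other strand) and the octamer ATTTGCAT read by Oct4. They run from 200 bases before the start site to 25 after it, in RefSeq on GRCm38.p6, Mesp1 at chr7:79793566-79793790 on the minus strand and Zfp42 at chr8:43306985-43307209 on the minus strand.
Mesp1: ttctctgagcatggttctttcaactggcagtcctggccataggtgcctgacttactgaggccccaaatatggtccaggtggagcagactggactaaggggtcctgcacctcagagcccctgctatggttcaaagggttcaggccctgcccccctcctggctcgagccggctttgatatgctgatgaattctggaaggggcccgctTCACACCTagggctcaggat
Zfp42: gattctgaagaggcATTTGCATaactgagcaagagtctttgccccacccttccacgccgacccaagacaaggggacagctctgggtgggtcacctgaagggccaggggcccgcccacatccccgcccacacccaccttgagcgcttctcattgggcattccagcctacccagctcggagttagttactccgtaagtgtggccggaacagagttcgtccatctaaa
Over 9694 tested single-name genes with a RefSeq promoter of 300 bases, the T-box site was found on either strand in 97 (1.00%), in 8 of 667 (1.20%) of those at least 2-fold higher in Eo+ and in 11 of 910 (1.21%) of those at least 2-fold lower. The octamer was found in 161 (1.66%), in 15 (2.25%) of the higher and 30 (3.30%) of the lower genes. Members of the lists that went either way held each motif. The T-box site was also in Plet1, higher in Eo+, and in Cdkn1a and Sycp3, lower. The octamer was also in Evx1, Dll1, Tnc, Egr2, Nrarp, Plet1 and Srebf2, higher, and in Cdx2, Sfrp2, Aldh1a2 and Gadd45a, lower. A match is a string of letters and not a measured binding site.

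**Figure D3:**
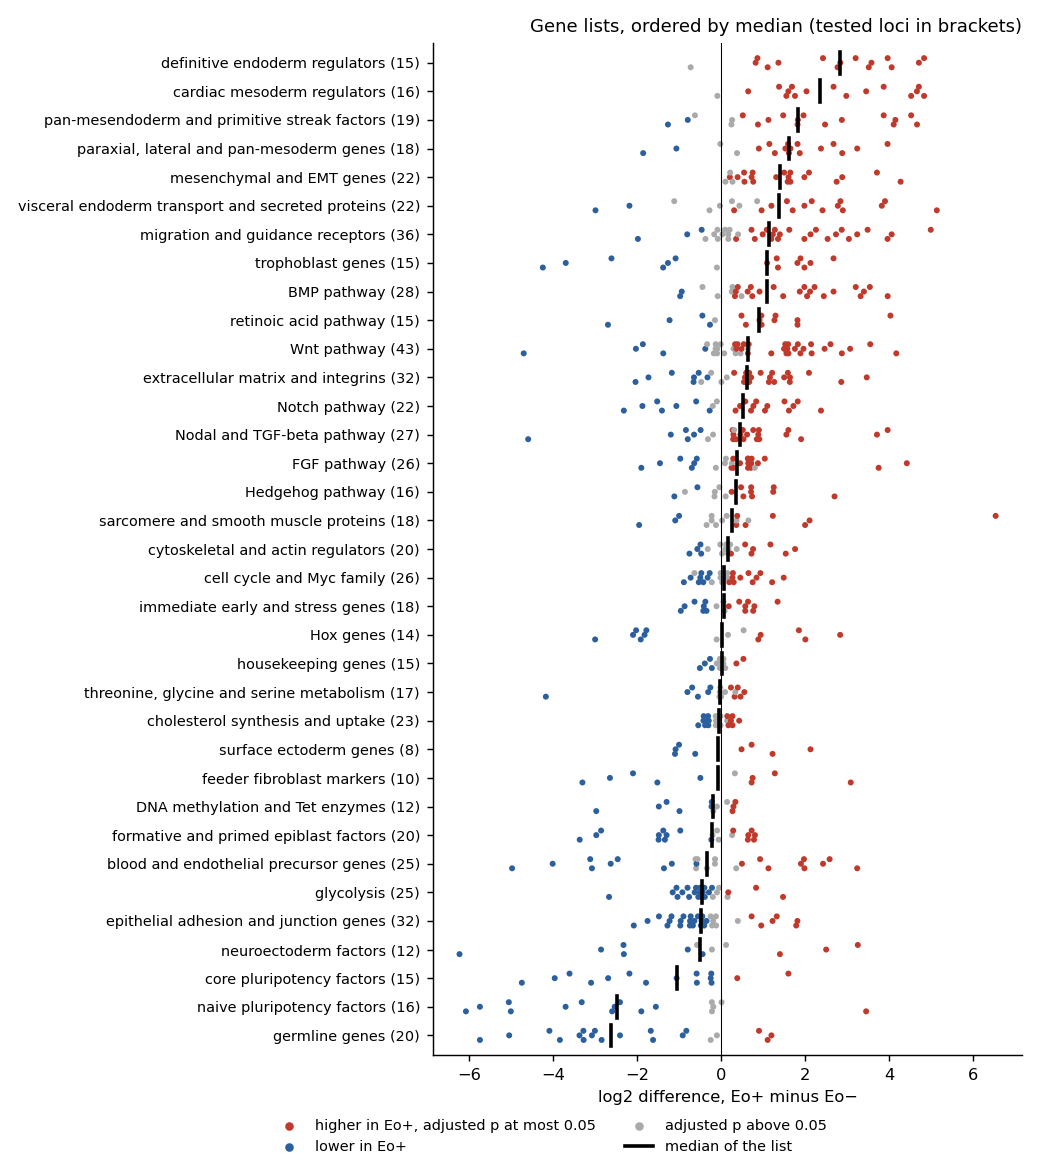
Log2 difference between Eo+ and Eo− (x axis) for the tested loci of 35 gene lists (y axis), 1 point per locus, ordered by the median (black bar). Definitive endoderm regulators lie at the top with a median of 2.84 and germline genes at the bottom with -2.63.

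In the Nodal and TGF-beta pathway the ligand and its helpers parted. Of 27 loci tested, 18 were higher and 6 lower, with a median of 0.46. Nodal was at 43.9, 38.8, 67.4 and 42.4 CPM in Eo+ and 87.8, 91.3, 69.5 and 80.1 CPM in Eo−, lower in Eo+ (-0.80 ± 0.17, adjusted p = 0.00644), though in culture 5 the fractions were alike. Gdf3, a related ligand of pluripotent cells, was at 0.662, 0.585, 2.02 and 0.707 CPM against 20.1, 22.8, 21.3 and 23.8 CPM (-4.60 ± 0.30, adjusted p = 2.79e-05). The coreceptors went up: Tdgf1 was at 884, 1746, 954 and 1454 CPM against 379, 447, 391.7 and 384 CPM (1.60 ± 0.13, adjusted p = 7.37e-05), and Cfc1 (Cryptic) at 100.5, 52.4, 92.1 and 79.9 CPM against 8.29, 5.46, 4.26 and 6.76 CPM (3.71 ± 0.17, adjusted p = 8.16e-06). Of the feedback antagonists, Lefty1 was higher by 0.85 ± 0.20 (adjusted p = 0.0103, and 0.0522 without the pairing), less than Cer1. The type II receptor Acvr2a was higher by 0.91 ± 0.11 and the ligand Tgfb1 by 1.90 ± 0.22 (adjusted p = 0.00047 and 0.000305).

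BMP components were mostly higher in Eo+, 21 of 28 with 2 lower and a median of 1.08. Bmp2, a ligand of heart-forming mesoderm and endoderm, was at 81.9, 36.8, 56.7 and 54.8 CPM in Eo+ and 10.2, 3.19, 3.40 and 3.86 CPM in Eo− (3.54 ± 0.17, adjusted p = 1.01e-05), and Bmp7 at 55.2, 54.9, 52.3 and 53.7 CPM against 14.4, 9.59, 7.87 and 8.27 CPM (2.44 ± 0.14, adjusted p = 1.45e-05). Bmp4, the ligand that patterns the posterior streak, varied from culture to culture and overlapped between fractions, yet it was higher in Eo+ in each culture (94.4, 26.5, 18.3 and 54.1 CPM against 20.5, 10.9, 8.65 and 9.87 CPM; 1.87 ± 0.21, adjusted p = 0.000288). The signal transducer Smad1 was higher by 2.04 ± 0.11, and the targets Msx1, Msx2 and Id1 by 2.22 ± 0.08, 3.32 ± 0.13 and 1.25 ± 0.15. Inhibitors rose in the same cells, the ligand-binding Chrd by 2.12 ± 0.19 and Bmper by 3.20 ± 0.24, the decoy receptor Bambi by 1.48 ± 0.07 and the inhibitory Smad6 by 1.98 ± 0.11. Each of these 8 genes had an adjusted p of 0.000357 or below.

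The Wnt list held 43 tested loci, 26 higher and 5 lower, with a median of 0.63. Wnt3, the ligand that starts the streak, was at 68.2, 83.9, 48.4 and 83.6 CPM in Eo+ and 24.2, 19.4, 9.89 and 20.2 CPM in Eo− (1.96 ± 0.12, adjusted p = 2.26e-05). Wnt2b and Wnt5a, ligands of mesoderm, were higher by 4.17 ± 0.16 and 2.46 ± 0.27 (adjusted p = 6.22e-06 and 0.000252), and Wnt2, which was not on the list but among the largest rises, by 5.42 ± 0.30 (adjusted p = 1.45e-05). A pair of transcriptional targets of beta-catenin differed in size, Sp5 by 2.87 ± 0.15 and Axin2 by 0.66 ± 0.09 (adjusted p = 1.28e-05 and 0.000551). Secreted antagonists went both ways. Dkk1 was at 69.9 ± 20.8 CPM (SD, n = 4) in Eo+ against 8.23 ± 1.98 CPM (3.07 ± 0.18, adjusted p = 1.75e-05) and Frzb was higher by 3.55 ± 0.24 (adjusted p = 3.1e-05), whereas Sfrp2 and Dkk4 were lower, at -1.38 ± 0.07 and -4.70 ± 0.61 (adjusted p = 1.24e-05 and 0.000557). Rspo1, an enhancer of Wnt signalling, and Notum, an enzyme that inactivates Wnt ligands, were lower in Eo+, at -2.03 ± 0.10 and -1.87 ± 0.17 (adjusted p = 9.22e-06 and 0.000106), while Rspo3 was higher by 1.59 ± 0.07 (adjusted p = 6.95e-06).

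FGF ligands moved both ways. Of 26 loci in this pathway 15 were higher and 6 lower (median 0.37). Fgf4, the ligand of ESCs and epiblast, was at 5.07, 17.4, 5.30 and 12.1 CPM in Eo+ and 34.1, 34.0, 38.3 and 33.8 CPM in Eo− (-1.90 ± 0.31, adjusted p = 0.00157). Fgf3 and Fgf10, ligands of mesoderm, were at 113, 106, 32.7 and 117 CPM and 90.9, 62.2, 45.1 and 78.4 CPM in Eo+, against 15.8, 5.05, 1.84 and 6.80 CPM and 7.62, 2.22, 1.71 and 2.50 CPM (3.75 ± 0.25 and 4.42 ± 0.23, adjusted p = 2.98e-05 and 1.26e-05). Fgf8, which streak cells need to migrate, was higher by 0.87 ± 0.20 (adjusted p = 0.00815), least in culture 1.

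**Figure D4:**
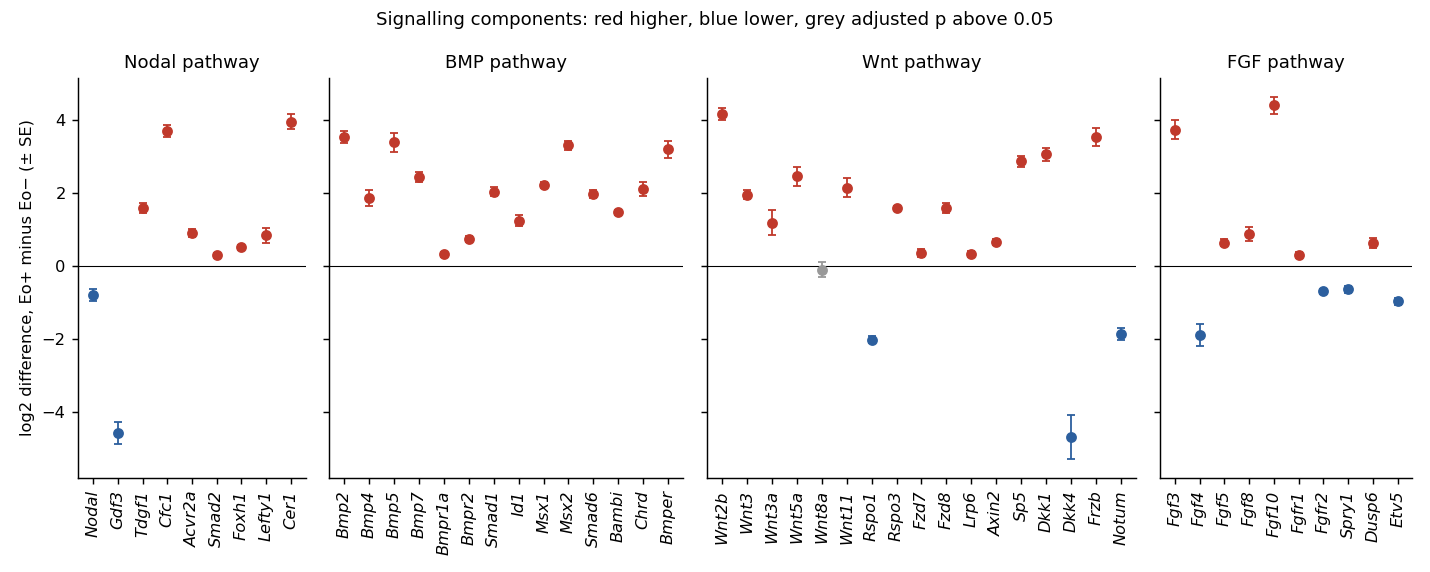
Log2 difference between Eo+ and Eo− (y axis, points with ± SE) for components of the Nodal, BMP, Wnt and FGF pathways (x axis), red where higher in Eo+, blue where lower and grey where not called. Nodal, Gdf3 and Fgf4 lie below 0, and Cer1, Cfc1, Bmp2, Wnt2b and Fgf10 lie above 3.5.

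Notch components were higher in 13 of 22 and lower in 7 (median 0.51), with Jag1 higher by 1.82 ± 0.16 and its fellow ligand Jag2 lower at -1.52 ± 0.12 (adjusted p = 8.03e-05 and 6.43e-05). Hedgehog components were higher in 9 of 16 and lower in 2 (median 0.36, and 0.14 where loci under 1 CPM are left out), and the largest difference was in the coreceptor Gas1, 2.70 ± 0.17 (adjusted p = 2.23e-05), while the mediator Gli2 was lower (-1.12 ± 0.11, adjusted p = 0.000136). In the retinoic acid list, 10 of 15 were higher and 4 lower (median 0.91), and 2 were lower without the pairing, without culture 1 or without culture 6. Cyp26a1, the enzyme that degrades retinoic acid, was at 389.6, 460.1, 335 and 520.1 CPM in Eo+ and 37.5, 24.2, 15.3 and 29.4 CPM in Eo− (4.03 ± 0.16, adjusted p = 6.14e-06). Crabp2, a binding protein that delivers retinoic acid to the nucleus, and the receptor Rarg were lower, at -2.70 ± 0.17 and -1.23 ± 0.06 (adjusted p = 2.21e-05 and 9.22e-06).

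Epithelial and mesenchymal genes moved in opposite directions, with exceptions. Of 32 epithelial genes 20 were lower and 6 higher (median -0.48), and of 22 mesenchymal genes 19 were higher and none lower (median 1.40). E-cadherin (Cdh1) was at 273, 239, 473 and 252 CPM in Eo+ and 567, 542, 604 and 612 CPM in Eo− (-0.97 ± 0.14, adjusted p = 0.000942), and N-cadherin (Cdh2) at 190.0, 249, 159.6 and 238 CPM against 38.6, 29.1, 23.5 and 33.3 CPM (2.75 ± 0.12, adjusted p = 7.81e-06). Both cadherins were thus present in Eo+, with the least loss of Cdh1 in culture 5. The culture 5 Eo+ library was highest for 31 of the 32 epithelial genes (96.9%, against 30.7% of all loci) and that of culture 2 lowest for 25 (78.1%, against 24.3%). Leaving out 1 culture gave 15 to 23 lower epithelial genes, the fewest without culture 6 (median -0.42) and the most without culture 5 (median -0.60). Snai1, a repressor of Cdh1, was higher by 2.88 ± 0.19 and the mesenchymal cadherin Cdh11 by 4.27 ± 0.21 (adjusted p = 2.9e-05 and 1.11e-05). Grhl2, which keeps epithelial genes on, and the tight junction protein Cldn3 were lower, at -1.75 ± 0.15 and -2.08 ± 0.31 (adjusted p = 8.35e-05 and 0.00103). Against the trend of their list, the simple epithelial keratin Krt8 and the desmosomal protein Dsp were higher by 1.81 ± 0.19 and 1.78 ± 0.12 (adjusted p = 0.000178 and 3.15e-05), and both occur in early endoderm.

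Receptors for guidance and migration were higher in 23 of 36 and lower in 3, or 5 without culture 5 (median 1.14). The chemokine Cxcl12 and its receptor Cxcr4 went opposite ways: Cxcr4 was at 84.2, 97.2, 54.8 and 99.8 CPM in Eo+ and 8.20, 4.79, 3.55 and 3.88 CPM in Eo−, and Cxcl12 at 9.13, 7.89, 22.2 and 7.56 CPM against 47.6, 41.4, 46.4 and 39.4 CPM (-1.98 ± 0.23, adjusted p = 0.000323). The apelin receptor Aplnr, in a locus with a predicted gene, was higher by 2.73 ± 0.16 (adjusted p = 1.87e-05) and its ligand Apln by 0.72 ± 0.20 (adjusted p = 0.0184, and 0.0642 without culture 2). Of the semaphorin receptors on the list, Plxna4 was higher by 4.99 ± 0.18, Plxna2 by 3.04 ± 0.16 and the Nrp1 locus by 3.48 ± 0.19 (adjusted p = 5.36e-06, 1.21e-05 and 1.35e-05). Among 32 matrix proteins and integrins, 21 were higher and 7 lower (median 0.62). Fibronectin (Fn1), the substrate of migrating mesoderm, was at 1991, 2498, 1047 and 2614 CPM in Eo+ and 733, 425, 298 and 448 CPM in Eo− (2.09 ± 0.18, adjusted p = 8.23e-05), and gained more CPM than any other single-name locus called higher. The integrin Itga8 and the basement membrane collagen Col4a1 were higher by 3.46 ± 0.18 and 1.64 ± 0.08, whereas the basement membrane collagen Col18a1 was lower at -2.04 ± 0.17 (adjusted p = 1.23e-05, 9.85e-06 and 7.88e-05).

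Of 25 genes of glycolysis and pyruvate use, 18 were lower in Eo+ and 3 higher (1 without culture 6), with a median of -0.47. Most differences were small: Eno1 (enolase) was at 1664, 2302, 2157 and 2011 CPM in Eo+ and 2697, 3702, 3155 and 3049 CPM in Eo− (-0.63 ± 0.05, adjusted p = 5.38e-05), and Gapdh, Pkm and Aldoa, which encode other enzymes of the pathway, differed by -0.39 ± 0.05, -0.47 ± 0.05 and -0.55 ± 0.06. They were nevertheless among the 8 loci with the largest loss in CPM, together with Dnmt3b, Pou5f1, Ptma and Mkrn1. Pdk1, the kinase that keeps pyruvate out of the mitochondrion, was at 26.9, 23.1, 49.8 and 15.9 CPM against 165, 199.6, 186 and 146 CPM (-2.67 ± 0.20, adjusted p = 4.33e-05). The lactate and pyruvate transporter Slc16a1 went up, by 1.47 ± 0.12, while the glucose transporter Slc2a1 was lower at -1.07 ± 0.12 (adjusted p = 7.72e-05 and 0.000276). The glucose transporter Slc2a3 was higher in 3 of 4 cultures (0.83 ± 0.25, adjusted p = 0.0259), a call lost without culture 1 (0.78, adjusted p = 0.0868) or culture 6 (0.89, adjusted p = 0.0545), without the pairing (adjusted p = 0.0787) and in DESeq2 (adjusted p = 0.247). Tdh, the threonine dehydrogenase on which mouse ESCs rely, was at 4.52, 3.70, 10.3 and 4.77 CPM in Eo+ and 104, 108, 102 and 85.9 CPM in Eo− (-4.18 ± 0.23, adjusted p = 1.45e-05). The rest of the threonine, glycine and serine list was divided, 5 higher and 6 lower of 17 with Tdh counted (median -0.02), as were cholesterol genes, 6 higher and 8 lower of 23 (median -0.06). Of the cholesterol genes 3 were higher without the pairing or without culture 2, 2 without culture 1 and 0 without culture 6, and the median was -0.14 without culture 2 and 0.01 with all assembled loci in the fit.

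The genes for de novo DNA methylation were lower in Eo+. The methyltransferase Dnmt3b was at 643, 671, 1053 and 643 CPM in Eo+ and 1856, 1970, 2254 and 2189 CPM in Eo− (-1.49 ± 0.10, adjusted p = 2.88e-05), the largest loss in CPM of any single-name locus called. Dnmt3a was lower too, as was the locus that joins the cofactor Dnmt3l with Icosl, at -1.30 ± 0.06 and -2.98 ± 0.16 (adjusted p = 1.02e-05 and 1.27e-05). The whole list of 12 held 3 higher and 6 lower members (median -0.21), with 1 higher without the pairing or without culture 1, 2 or 6. Cell cycle genes were balanced, 11 higher and 8 lower of 26 (median 0.08), with Ccnd2 and Myc higher by 1.49 ± 0.13 and 0.93 ± 0.08 and Ccne1 and Mycn lower at -0.89 ± 0.06 and -0.50 ± 0.14 (adjusted p = 8.01e-05, 8.07e-05, 3.32e-05 and 0.0214). The call for Mycn was lost without culture 1 (-0.40, adjusted p = 0.0806) or culture 5 (-0.36, adjusted p = 0.0625). Cytoskeletal genes were higher in 7 of 20 (12 with all assembled loci in the fit) and lower in 4 (2 without the pairing), with a median of 0.17 (0.10 without culture 2).

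Hox genes went both ways. Of 14 tested loci 5 were higher and 6 lower in Eo+, which became 2 and 2 without the pairing (median 0.03, 0.69 over loci with 1 name, -0.04 without culture 1 and 1.80 where loci under 1 CPM are left out), and 13 of the 28 genes listed did not pass the filter. The 3′ genes Hoxb1, Hoxb2 and Hoxb3, the first of their cluster to be switched on in the streak, were higher by 2.00 ± 0.24, 2.83 ± 0.24 and 1.85 ± 0.23 (adjusted p = 0.000362, 7.14e-05 and 0.000476, the last 0.0617 without the pairing). Hoxb1 was at 13.2, 22.7, 5.34 and 28.6 CPM in Eo+ and 6.31, 3.62, 1.05 and 6.49 CPM in Eo−, lowest in culture 5 in both. The lower loci were Hoxb7, Hoxb8, Hoxb9, Hoxd8, Hoxd9 and the one that joins Hoxd3 and Hoxd4. Hoxb9 and Hoxd9, toward the 5′ end, were lower at -3.003 ± 0.20 and -1.92 ± 0.18 (adjusted p = 3.15e-05 and 0.000131, the latter 0.0678 without the pairing) at levels of 2.23 ± 0.546 and 1.79 ± 1.68 CPM (SD, n = 4) in Eo−. Each of these 2 loci joins the Hox gene with other named transcripts.

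Further lists served to check the RNA and other cells. Housekeeping genes had a median of 0.01, with 2 higher and 4 lower of 15, and their summed level was 12560 to 14180 CPM in Eo+ and 13390 to 15790 CPM in Eo−. Of 18 feeder fibroblast markers 8 did not pass the filter, and of the 10 tested 4 were higher (2 without the pairing) and 5 lower (median -0.09, 0.70 where loci under 1 CPM are left out, 0.11 without culture 2 and -0.39 without culture 5), at a summed level of 51.8 to 91.0 CPM in Eo+ and 44.37 to 55.91 CPM in Eo−. Members went both ways. The most abundant in Eo+ was the matrix protein Fbln2 (fibulin), at 41.2, 17.7, 12.8 and 32.7 CPM in Eo+ and 3.44, 3.21, 2.41 and 2.74 CPM in Eo− (3.08 ± 0.22, adjusted p = 3.99e-05), and the collagen genes Col1a1 and Col1a2 and the receptor gene Pdgfrb were higher too. The most abundant in Eo− was the surface protein Thy1, at 7.11, 8.32, 7.01 and 7.67 CPM against 19.4, 20.6, 29.0 and 18.1 CPM (-1.52 ± 0.14, adjusted p = 0.000101). Dcn (decorin), a matrix proteoglycan of fibroblasts that was under 1 CPM in every library, was at 0.0522, 0.0988, 0.181 and 0.0268 CPM in Eo+ and 0.378, 0.404, 0.751 and 0.522 CPM in Eo−, and Timp1, Cxcl5 and Mgp were lower as well. The part of feeder RNA in other results was not tested. Immediate early and stress genes, which respond to dissociation and sorting, were higher in 8 of 18 (4 without the pairing) and lower in 7 (median 0.07).

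Beyond the lists, the largest differences in log2 or in CPM brought in further genes. Optc (opticin), a small matrix proteoglycan, was at 5.41, 17.4, 4.24 and 13.3 CPM in Eo+ and 0.108, 0.326, 0.0429 and 0.132 CPM in Eo− (6.09 ± 0.23, adjusted p = 6.09e-06). Six2, a homeobox factor of kidney and head mesenchyme, was higher by 4.73 ± 0.15, Prdm6, a chromatin repressor of smooth muscle, by 5.30 ± 0.29, Prss12 (neurotrypsin), a secreted protease, by 4.92 ± 0.29, and Bace2, an aspartyl protease, by 4.70 ± 0.13. Pilra, an immune receptor, was higher by 4.88 ± 0.28 but has close relatives, and reads that it shares with them would not be counted. Emb (embigin), a partner of lactate transporters, was at 1583, 1514, 1911 and 1506 CPM against 544, 468, 524 and 534 CPM (1.65 ± 0.07, adjusted p = 7.26e-06). Amot (angiomotin), a junction protein that binds Yap, and Hmga2, a chromatin protein of embryonic cells, gained among the most CPM, with 2.93 ± 0.18 and 2.27 ± 0.17 (adjusted p = 2.21e-05 and 4.22e-05). On the other side, AU018091 differed by -6.36 ± 0.42, Sohlh2, a germ cell bHLH factor, by -5.90 ± 0.22, and the tripartite motif genes Triml1 and Triml2 by -5.12 ± 0.21 and -5.05 ± 0.22. The ribosomal protein genes Rpl10l and Rpl39l were lower as well, at -4.52 ± 0.18 and -5.003 ± 0.21. They are autosomal copies, and reads shared with the X-linked originals would not be counted. Mkrn1, a ubiquitin ligase, was at 81.7, 81.2, 142 and 79.0 CPM in Eo+ and 458, 598, 532 and 504 CPM in Eo− (-2.48 ± 0.14, adjusted p = 1.57e-05).

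Cultures also differed among themselves. A culture effect shared by both fractions was called for 199 loci (1.20%), and in 165 of these (82.9%) culture 1 lay farthest from the other cultures, above them in 156. Without culture 1 the culture effect was called for 10 loci, and without culture 5 for 380. The loci with the smallest p were Fosb, Hand1, Unc5c, Ets1, Ptprb and Capn6. Ets1, an ETS factor of endothelium and mesoderm, was at 61.1, 14.6, 16.0 and 21.5 CPM in Eo+ and 30.1, 10.6, 9.32 and 12.7 CPM in Eo−, and Fosb, an immediate early factor, at 75.4, 25.2, 24.5 and 22.4 CPM and 54.6, 16.1, 14.1 and 16.3 CPM, so that in both genes culture 1 exceeded the rest. Of the 25 blood and endothelial genes, culture 1 was highest for 22 in Eo+ and 24 in Eo−, against 28.4% and 34.1% of all tested loci. The same culture was highest for 16 of 22 visceral endoderm genes in each fraction, where culture 2 was lowest for 21 in Eo+ (24.3% of all loci). Among 14 Hox loci, culture 1 was highest for 11 in Eo+ and 12 in Eo−. Igf2, an imprinted growth factor of mesoderm and extraembryonic tissue, was at 1152, 219, 359 and 489 CPM in Eo+ and 558, 85.8, 92.1 and 136 CPM in Eo−, with culture 1 highest in both.

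Within Eo+, the order of cultures differed between lists. Culture 5 was highest for 8 and lowest for 4 of 15 definitive endoderm regulators (30.7% and 30.1% of all loci), highest for 4 of the 22 visceral endoderm genes, and lowest for 15 of 18 mesoderm genes. Culture 2 was highest for 12 of 19 streak factors (21.8%) and lowest for 8 of the endoderm regulators (24.3%). For cholesterol genes culture 6 was highest in 18 of 23 (78.3%, against 19.1% of all loci), and in Eo− in 17 (73.9%, against 16.7%). In Eo−, culture 5 was lowest for 16 of the 19 streak factors and 11 of the 15 endoderm regulators (25.8%). The fractions of culture 5 were thus the farthest apart for Foxa2, Sox17 and T and the closest for Nodal, Cdh1 and Nanog. The order of cultures is a description, without a test, and its cause was not tested.

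**Figure D5:**
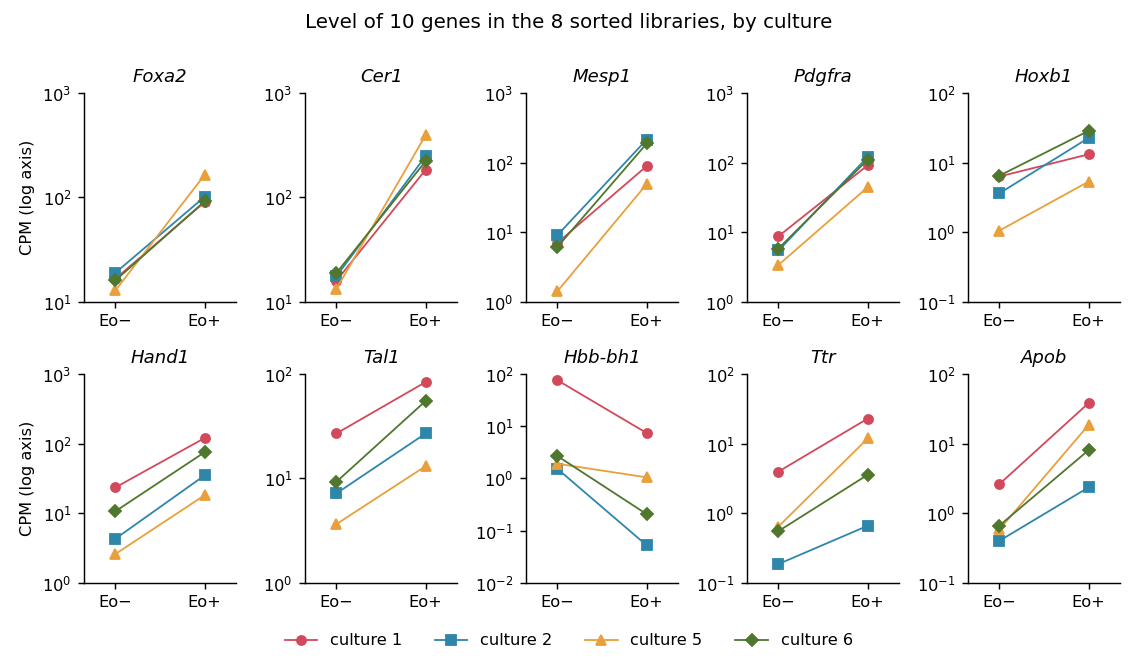
CPM (y axis, log scale) of 10 genes in Eo− and Eo+ cells (x axis), 1 point per library, lines joining the fractions of a culture. Culture 1 lies highest for Hand1, Tal1, Hbb-bh1, Ttr and Apob in both fractions, and culture 5 has the highest Foxa2 and Cer1 and the lowest Mesp1, Pdgfra and Hoxb1 in Eo+.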

How the data were processed

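Poly(A) RNA of 8 libraries, 4 Eo+ and 4 Eo−, was compared; per the labels it was sequenced paired-end, and the other 4 libraries, of ESCs, entered 1 alternative design only. The authors aligned reads to mouse genome build mm10 with STAR, assembled transcripts with Cufflinks (version 2.2.1 in the submitters' processing notes) and counted reads per assembled locus with HTSeq (version 0.6.1). The deposited values used here are raw counts per locus, and exon positions came from the deposited transcript annotation. A deposited normalised table was not used. Loci were kept where the annotation gave them a reference gene name, and loci that joined several names are said to do so. Depth was 648413022 to 797536501 counts per library, and 3 counts set the floor.

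Counts were analysed in R (version 4.3.3) with limma (version 3.58.1) and voom after TMM scaling by edgeR (version 4.0.16), with fraction and culture number as terms. The filter was a mean FPKM above 0.1 in at least 1 fraction, computed from counts and exon length. Loci were called at a two-sided adjusted p (Benjamini-Hochberg, 16563 loci) of at most 0.05, and all adjusted p-values in the text are from this limma test unless another tool is named. The culture effect was an F test on the culture terms of the same fit. Same-numbered libraries deviated together, with correlations of 0.623, 0.303, 0.363 and 0.396 for cultures 1, 2, 5 and 6. Pairs of unlike number gave -0.4 to 0.267, the highest for Eo+ of culture 2 with Eo− of culture 6. Deviations were taken from the mean of each fraction, which pulls unlike pairs toward negative values. Cultures 2 and 6 are thus less clearly matched by this measure. The methods describe 4 separate differentiation sets, so the numbers were taken to pair the libraries. The procedure was tested on simulated data with far fewer changed loci than the 50.6% called here, so that test does not cover the present setting.

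Genes named were members of the lists, and 12 loci each from the top of the rises and of the falls (called, 1 name, at least 5 CPM, no overlap). Added to these were the 8 with the largest gain and the 8 with the largest loss in CPM, and the 6 with the smallest p for culture. Igf2 and Lincenc1 were chosen after their values were seen. The libraries, lists and tests were chosen with earlier results of these data known. Alternatives were other designs, DESeq2 (version 1.42.0), edgeR, library totals, other filters and leaving out each culture. Promoter sequences were matched to RefSeq by symbol, and motifs were searched as letters on both strands, with chromosome 18 left out. Mitochondrially encoded messages were not analysed here.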

Additional observations from a re-analysis of the deposited data

Results flagged for a closer look

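For 180 genes named in the text, each fraction was looked at for a library whose CPM stood apart from the other 3 by Dixon's gap-to-range ratio, which chance exceeds in about 1 in 20 groups of 4. Of 360 such groups 58 held one, and culture 1 was the library apart in 36 of them and culture 5 in 19. The genes include 7 chosen for differences between cultures (the 6 with the smallest p for culture, and Igf2), and without them 49 of 346 groups held one, culture 1 in 27. The other genes were named with results of these libraries known, so these counts are not to be set against the chance share. Among Eo− libraries, culture 1 stood above the others for Hhex (16.1 CPM), Hand2 (2.71 CPM), Tbx20 (2.999 CPM), Tie1 (29.1 CPM), Cdh5 (40.7 CPM), Hbb-bh1 (75.7 CPM), Hba-x (16.7 CPM), Apob (2.62 CPM), Ttr (3.96 CPM), Bmp2 (10.2 CPM), Fgf10 (7.62 CPM), Nrp1 (16.4 CPM), Hoxb3 (2.19 CPM), Prdm6 (3.76 CPM), Prss12 (1.79 CPM), Hmga2 (171 CPM), Ets1 (30.1 CPM), Fosb (54.6 CPM), Igf2 (558 CPM), Prdm1 (16.1 CPM), Kit (42.0 CPM), Unc5c (9.76 CPM) and Capn6 (13.8 CPM). In Eo+, it stood above for Pecam1 (8.77 CPM), Tie1 (6.67 CPM), Cdh5 (17.1 CPM), Hbb-bh1 (7.39 CPM), Hba-x (0.265 CPM), Notum (1.85 CPM), Ets1 (61.1 CPM), Fosb (75.4 CPM), Unc5c (24.0 CPM) and Ptprb (5.43 CPM). Genes of endothelium and blood take part in both sets, among them Tie1, Cdh5, Hbb-bh1 and Ets1. Culture 1 was low in Eo+ for Mael (0.239 CPM) and Apln (66.2 CPM) and in Eo− for Mael (6.62 CPM), the piRNA factor.

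Culture 5 stood above the other Eo+ libraries for Foxa2 (165 CPM), Tcl1 (0.106 CPM), Sox2 (42.0 CPM), Utf1 (26.5 CPM), Gdf3 (2.02 CPM), Lefty1 (110.3 CPM), Cdh1 (473 CPM), Cldn3 (6.90 CPM), Cxcl12 (22.2 CPM), Tdh (10.3 CPM), Dnmt3b (1053 CPM), Sohlh2 (0.316 CPM) and Mkrn1 (142 CPM). The same library was low for Wnt2 (4.38 CPM), Fgf3 (32.7 CPM) and Hmga2 (362 CPM). In Eo−, culture 5 was high for Fgf4 (38.3 CPM) and low for Axin2 (31.7 CPM) and Dnmt3l (66.3 CPM). The other values apart were those of culture 2 in Eo−, high for Gsc (5.18 CPM) and low for Acvr2a (13.4 CPM), and that of culture 6 in Eo+, high for Dppa2 (2.70 CPM). The cause of these gaps was not tested.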

How the results depend on the processing

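The count of loci called between the fractions stayed within 1.5 times of 8381 under every other design, tool, scaling and filter tried. Without the replicate block it was 7233 (7152 of them shared with the paired fit), over all 12 libraries without the block 6904, in edgeR 8343 and in DESeq2 8895. Leaving out 1 culture gave 6089 to 8046 loci, the fewest without culture 6. At 2-fold or more 2491 loci were called, or 1654 with at least 1 CPM in 4 libraries and 4135 with no filter. With all assembled loci in the fit, named or not, 5365 of 8657 calls (62.0%) were higher in Eo+, against 52.3% of 8381, and the median over the named loci moved from -0.005 to 0.068. The culture effect was less steady: 113 loci with library totals, 91 with at least 1 CPM in 4 libraries, 321 with all loci in the fit, and 10 to 380 without 1 culture, the fewest without culture 1 and the most without culture 5. The cause was not tested.

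For 180 named genes and 13 alternatives, 2287 of 2325 values kept direction and side of the threshold, 37 lost the call and 1 gained it, and none changed sign. Many of these genes were named for large differences in the main fit, and the alternatives reuse the same sorted libraries. Close agreement was therefore likely from the start and is no independent check. Most losses came without the pairing, in genes whose cultures differ in level, such as Ets1 (adjusted p = 0.256), Fosb (0.363), Unc5c (0.296), Ptprb (0.438) and Igf2 (0.0752). Of 455 list medians 426 moved by less than their spread (10 of the 29 others are the matrix and integrin list, at 0.56 to 0.70 against 0.62), and 52 of 910 list counts moved by over 1.5 times, most of them without the pairing or under the filter of 1 CPM. The Hox median rose to 1.80 and that of feeder markers to 0.70 with at least 1 CPM in 4 libraries, which leaves fewer loci. All results rest on 1 reporter line and 4 cultures, day 3 only, and the sort did not leave Eo− free of Eomes.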

Other observations

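Kinds of transcript differed in how often they were called. Among loci with 1 name, 30.9% of 12473 protein-coding loci were higher in Eo+ and 26.0% lower. Of 255 lincRNA loci 23.5% were higher and 32.9% lower, and of 309 antisense loci 20.7% and 20.4%. Processed pseudogenes were rarely higher: 1.67% of 1439 were higher in Eo+ and 11.5% lower, and of 163 snoRNA loci 1.23% and 12.3%. Reads that pseudogenes share with their parent genes would not be counted, and poly(A) selection does not target snoRNAs. Lincenc1, a noncoding RNA named for ESC expression and chosen here after its values were seen, stood at 5.43, 6.99, 6.76 and 6.56 CPM in Eo+ and 95.8, 106.6, 89.2 and 99.2 CPM in Eo− (-3.93 ± 0.09, adjusted p = 3.85e-06), with the 4 cultures close together in both fractions.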
